A study of Mus musculus with 6 samples.

Results

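Tubulin genes and genes of microtubule-associated proteins were compared between hearts of wild-type mice and of mice labelled cenpf knock-out, 3 hearts of 12 months in each group and 1 microarray per heart. The gene set was a list of 52 symbols, and a listed gene was measured where a probe of the array's annotation carried its symbol and no other. This held for 48 of the 52 members, among 19938 genes named in that way, and a gene with more than 1 probe was represented by the probe with the highest mean. Tuba1b, Tuba1c and Tubb4b appear only in probes that list several genes, and Vash1 has no probe under its own symbol, so these 4 were not analysed here. All mice were untreated and the replicates are labelled as biological. The labels state neither strain nor sex, and neither the deleted part of Cenpf nor how the deletion was made nor which part of the heart was taken.

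Microtubules are hollow polymers of alpha- and beta-tubulin pairs. They are nucleated by gamma-tubulin rings, elongated and anchored by proteins that ride on the growing plus end, stabilised by proteins along the lattice, and shortened by stathmins and severing enzymes. In heart muscle cells they form a dense network between the myofibrils and around the nucleus, and part of their alpha-tubulin has lost its last tyrosine, a mark that ties them to the desmin network. The product of Cenpf, centromere protein F, itself binds microtubules, and the comparison thus asks how transcripts of the microtubule system stood in hearts with the Cenpf knockout.

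No member of the set passed the test. At an adjusted p under 0.05 (limma, Benjamini-Hochberg over 21789 probes), 0 of 48 measured members were called, beside 6 of 21789 probes, or 0.0275%, over the whole table. At an unadjusted p under 0.05 there were 8 members, or 16.7%, where 9.90% of all probes had such a p. Of the 8, 7 were higher in the knockout hearts (Map1a, Mapre3, Pcnt, Mapt, Mapre2, Camsap1 and Clip1) and 1 was lower (Stmn3), where 4.66% of all probes were higher and 5.24% lower at that p.

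The count of 8 hung on single hearts. Leaving out wild-type replicates 1, 2 and 3 in turn gave 1, 1 and 14 members, where the share of all probes was 6.84%, 6.07% and 15.8%. Leaving out knockout replicates 1, 2 and 3 in turn gave 14, 2 and 1 members, where that share was 11.2%, 7.37% and 6.60%. Array weights gave 21 members beside 17.9% of all probes, and all probes of the table as the family gave 4 beside 8.75%. With array medians subtracted there were 10 such members, all higher, beside 9.96% of all probes, and that scaling moved the split of all probes from 1015 higher and 1142 lower to 1301 and 869.

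Within the set, most tubulins and most other members lay on opposite sides of 0. Of the 9 measured alpha- and beta-tubulin genes 7 had lower means in the knockout hearts, with a median difference of -0.22 on the log2 scale. Of the 39 other members 29 had higher means, with a median difference of 0.13. Some of the 39 lay close to 0 on either side, such as Ckap5 (0.0036), Map1b (0.0069), Macf1 (-0.0085) and Tubg1 (-0.0007). Each of these named genes turned sign in an alternative fit. The median over all probes was -0.0082, and 47.9% of them were higher. The same 7 of 9 held after each of the 3 other normalizations, where the other members numbered 28 to 32 higher of 39. Single hearts moved the size of the tubulin median, which was -0.11 and -0.34 when wild-type replicates 2 and 3 were left out in turn and -0.36 when knockout replicate 1 was, with 7 or 8 of 9 lower each time. The genes in that count were not always the same. Without wild-type replicate 2, Tubb2b turned to 0.023 and Tubb3, which lay below the background level, to -0.0585. Without wild-type replicate 3, Tuba4a turned to -0.028. These are counts over genes measured on the same 6 arrays, and they were not tested as a group. By heart, the other members minus the tubulins, as means relative to all arrays, stood at -0.26, -0.40 and 0.16 in the wild-type hearts. In knockout replicates 1, 2 and 3 this gap was -0.0215, 0.27 and 0.26. Wild-type replicate 3 thus lay above knockout replicate 1, and the groups overlapped.

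**Figure D1:**
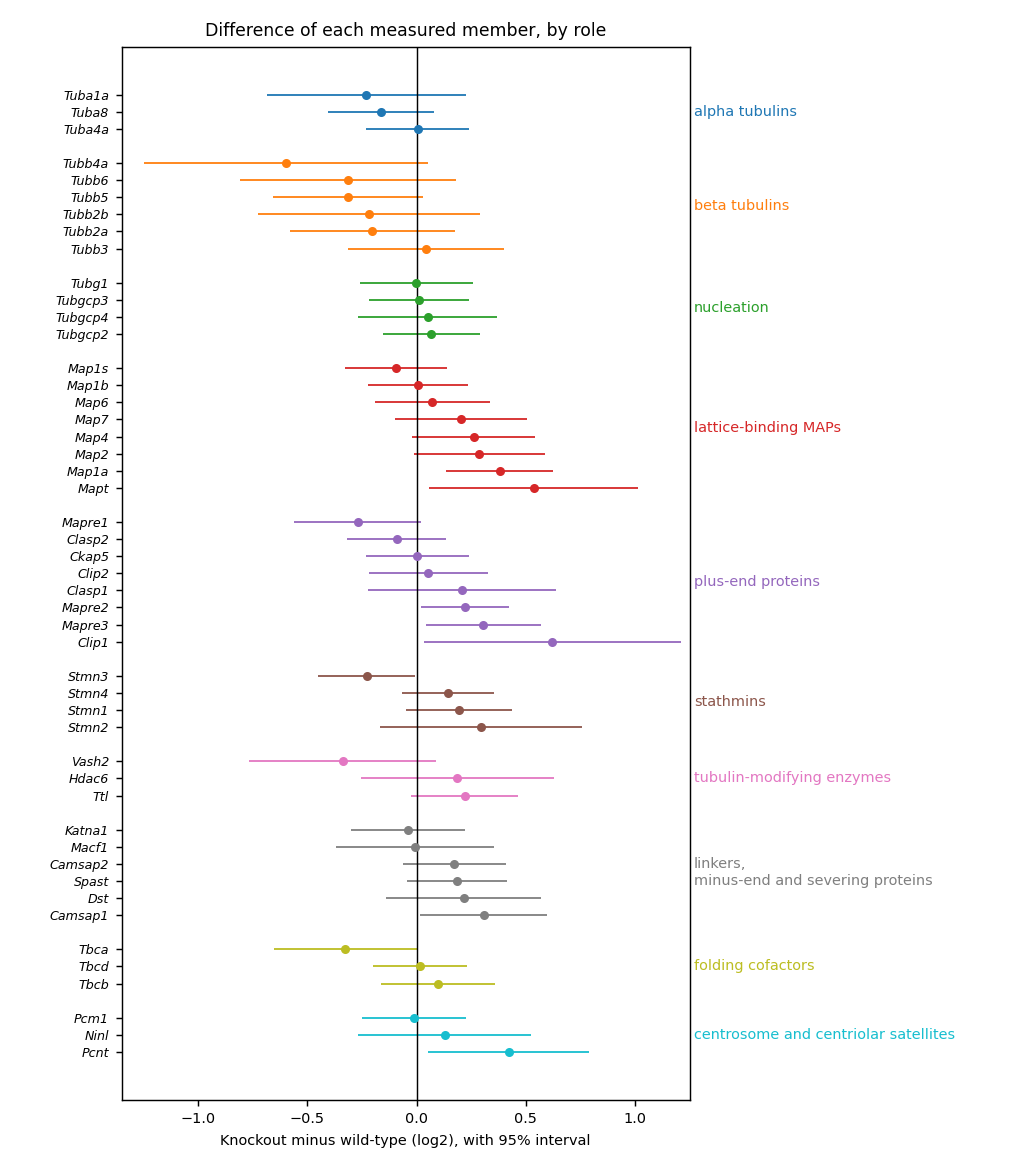
Knockout minus wild-type difference of each of the 48 measured members on the log2 scale (x axis), with the 95% interval of the limma fit, grouped by role. Points of 7 of 9 alpha- and beta-tubulin genes lie left of 0 and those of 29 of 39 other members lie right of it, while 40 of the 48 intervals contain 0.

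Wild-type replicate 3 stood apart from the other wild-type hearts and nearer the knockout hearts. In 36 of the 48 members its value was nearer the mean of the knockout hearts than the mean of the other wild-type hearts, against 59.6% of all probes. Knockout replicate 1 lay nearer the wild-type mean than the mean of the other knockout hearts in 30 members, against 51.7% of all probes. For the other 4 hearts this number was 11 to 18. The members described in most detail below are therefore given with the value of each heart.

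**Figure D2:**
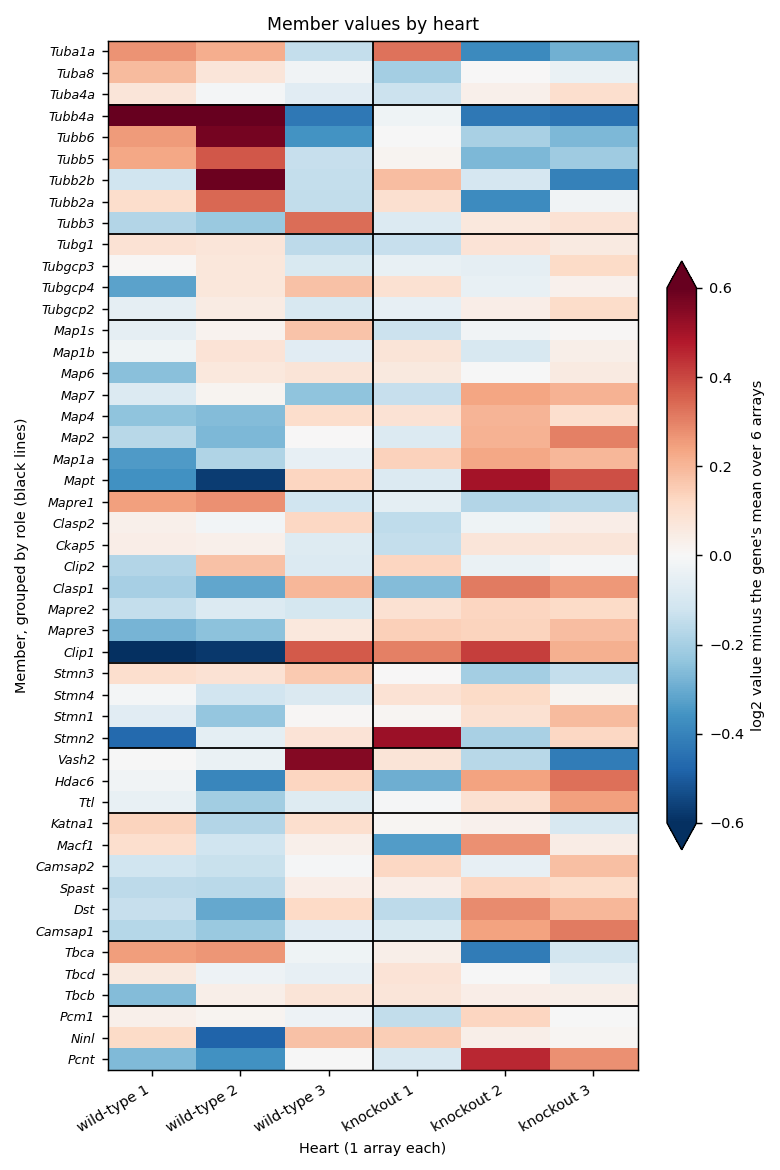
Value of each measured member (rows, grouped by role) in each heart (columns), as the log2 value minus the gene's mean over the 6 arrays, with the colour scale ending at 0.6 either way. Wild-type replicates 1 and 2 are red in most tubulins and blue in most other members, and wild-type replicate 3 has the colours of the knockout hearts in rows such as Tubb4a, Tubb5 and Clip1.

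Cenpf itself, as a check of the labels, had log2 values of 8.75, 8.54 and 8.04 in the controls and of 6.35, 6.10 and 6.68 under the knockout label. It fell by 2.07 (SE 0.21, adjusted p = 0.0286) without overlap of the groups. The exact two-sided permutation p was 0.1, which is the lowest possible with 3 hearts a group. The adjusted p was 0.0905 and 0.198 without wild-type replicates 1 and 2, and 0.123, 0.114 and 0.0689 without knockout replicates 1, 2 and 3, within 0.00508 to 0.281 over all alternatives. Whether the probe lies in the deleted part is not given. Without wild-type replicate 3 the number of probes called over the table was 293, and without any other heart it was 1 to 6. All 10 cardiomyocyte markers looked up were above the background level of 6.35, the 95th percentile of olfactory and vomeronasal receptor probes, and 47 of the 48 members exceeded it in 1 group or both.

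Promoter sequences are shown for the members around which the description turns, the beta tubulins Tubb4a and Tubb5 with lower means and the microtubule-binding genes Map1a and Clip1 with higher means. Each line gives the 100 bases before the annotated start of the gene, 5′ to 3′ on the gene's strand, from RefSeq on GRCm38.p6. Capitals mark matches, on either strand, to a CCAAT box (CCAAT), a GC box (GGGCGG) or a TATA box (TATAAA). The windows are chr17:57087601-57087700 (minus strand) for Tubb4a, chr17:35838302-35838401 (minus strand) for Tubb5, chr2:121289502-121289601 (plus strand) for Map1a and chr5:123684362-123684461 (minus strand) for Clip1.
Tubb4a: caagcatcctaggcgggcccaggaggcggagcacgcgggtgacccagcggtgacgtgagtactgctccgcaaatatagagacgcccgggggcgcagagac
Tubb5: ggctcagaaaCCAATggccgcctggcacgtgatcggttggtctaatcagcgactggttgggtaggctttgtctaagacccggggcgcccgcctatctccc
Map1a: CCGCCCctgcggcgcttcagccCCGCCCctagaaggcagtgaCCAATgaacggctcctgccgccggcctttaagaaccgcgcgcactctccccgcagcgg
Clip1: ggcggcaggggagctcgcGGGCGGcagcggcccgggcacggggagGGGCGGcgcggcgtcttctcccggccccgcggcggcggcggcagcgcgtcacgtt

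The promoter table held 35 of the 48 measured members, with 41 promoters. A GC box was found in 4 of the 7 tubulin promoters and in 19 of the 34 promoters of other members, against 24.7% of all 32844 promoters. A CCAAT box was found in 2 of 7 and 6 of 34, against 18.9% of all, and a TATA box in 1 of 7 and 2 of 34, against 5.56%. The promoters used for comparison were not limited to genes above the background level, and no comparison with such genes was made. A match to such short letters is no evidence of a bound factor, and the arrays did not measure promoters.

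The 3 measured alpha tubulins differed by -0.23 to 0.0052. Tuba4a, an isotype abundant in striated muscle, read 12.61, 12.52 and 12.46 in wild-type and 12.41, 12.57 and 12.64 in knockout hearts. The groups overlapped fully, and the difference was 0.0052 with a 95% interval of -0.23 to 0.24 (adjusted p = 0.991). Its sign turned without wild-type replicate 3 (-0.028), knockout replicate 2 (-0.0097) or knockout replicate 3 (-0.045). Tuba8 read 12.06, 11.95 and 11.85 in wild-type hearts and 11.67, 11.87 and 11.83 in knockout hearts. Knockout replicate 2 lay above wild-type replicate 3, and the difference was -0.16 (SE 0.11, adjusted p = 0.630). Tuba1a, whose protein is nearly identical to those of Tuba1b and Tuba1c, differed by -0.23 (SE 0.20, adjusted p = 0.725). Its highest value, 11.47, was that of knockout replicate 1 and its lowest, 10.76, that of knockout replicate 2, so the spread inside the knockout group exceeded the difference. Without knockout replicate 1 the Tuba1a difference was -0.45 and without knockout replicate 2 it was -0.096. The 4 probes that the annotation assigns jointly to several alpha-tubulin genes, which name no single gene, differed by -0.21 to -0.17, with wild-type replicate 3 below the other wild-type hearts in each.

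The beta tubulins, the subunit exposed at the growing plus end, had lower means in 5 of 6 measured genes. Tubb4a, best known from the nervous system, read 8.15 and 8.21 in wild-type replicates 1 and 2 and 7.09 in wild-type replicate 3. In the knockout hearts it read 7.49, 7.09 and 7.07. Only wild-type replicates 1 and 2 stood above 8, and the value of wild-type replicate 3 was the same as that of knockout replicate 2 to 2 decimals. The group means were 7.81 ± 0.63 and 7.22 ± 0.24 (SD, n = 3), a difference of -0.60 or 1.51-fold (SE 0.28, adjusted p = 0.529). Without wild-type replicate 3 it was -0.96 and passed (adjusted p = 0.0393, range 0.0393 to 0.867 over the alternatives). That call came from leaving out the wild-type heart whose values were most often nearer the knockout mean.

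Tubb5, the main beta isotype of many dividing and non-dividing cells, read 11.24, 11.38 and 10.86 in wild-type and 11.02, 10.73 and 10.79 in knockout hearts. Its groups overlapped because wild-type replicate 3 lay below knockout replicate 1. Tubb5 differed by -0.31 (SE 0.15, 95% interval -0.66 to 0.03, adjusted p = 0.531). Tubb6, an isotype found in many tissues, had the same pattern, with 9.51, 9.82 and 8.89 against 9.25, 9.05 and 8.98, and a difference of -0.31 (SE 0.22, adjusted p = 0.650). In it the lowest of the 6 values was a wild-type one, and the difference ranged from -0.57 without wild-type replicate 3 to -0.11 without wild-type replicate 2. Tubb2a read 8.38, 8.62 and 8.13 in wild-type and 8.37, 7.89 and 8.25 in knockout hearts, and differed by -0.20 (SE 0.16, adjusted p = 0.703). The Tubb2a difference was -0.33 when wild-type replicate 3 was left out and -0.064 when knockout replicate 2 was. Tubb2b, whose transcript is a near copy of that of Tubb2a, differed by -0.22 (SE 0.22, adjusted p = 0.765), with its highest value, 8.36, in wild-type replicate 2. Without that heart Tubb2b turned to 0.023, so its place among the 7 lower tubulins rested on 1 heart. How far these probes tell the 2 genes apart is not given. Tubb3, the isotype used as a mark of neurons, did not reach the background level, with means of 6.19 and 6.24. Among probes that list several genes, 2 with a beta-tubulin gene and another gene had higher knockout means, by 0.073 and 0.067. Their wild-type means were 10.30 and 10.34. A probe for beta-tubulin genes and a pseudogene differed by -0.071. These probes name no single gene.

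**Figure D3:**
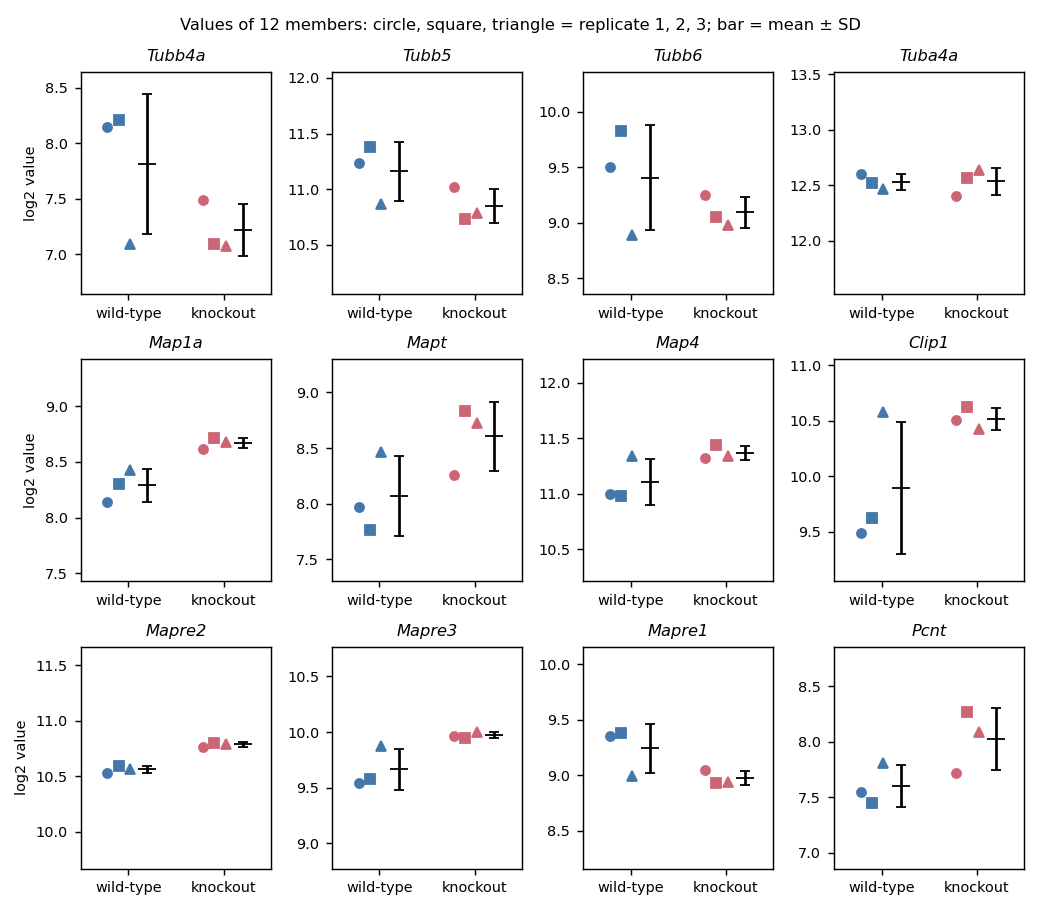
Log2 values of 12 members in each heart (circle, square and triangle for replicates 1, 2 and 3), with the mean ± SD of each group as a bar and the same height of axis in every panel. Wild-type replicate 3 lies with the knockout hearts in Tubb4a, Clip1 and Mapre1, while the groups are separate in Map1a, Mapre2 and Mapre3.

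Fibroblasts, smooth muscle and other non-muscle cells also express Tuba1a, Tubb5 and Tubb6, and in whole tissue fewer cells of a type and less RNA per cell cannot be told apart. The fibroblast markers followed an order like that of the tubulins in most hearts. Of 8 markers 7 had lower means in the knockout hearts, and none passed the test. The differences ran from -0.43 for Lum to -0.00047 for Dcn, the marker of highest mean, while Postn was higher by 0.046. Col1a2, Col1a1, Col3a1, Tcf21 and Pdgfra differed by -0.20, -0.18, -0.13, -0.12 and -0.024. The mean level of the list ran from 9.88 to 10.38 in wild-type and from 9.76 to 10.45 in knockout hearts. Relative to the mean of all arrays the list stood at 0.12, 0.29 and -0.22 in the wild-type and at 0.35, -0.34 and -0.21 in the knockout hearts. The alpha and beta tubulins stood at 0.16, 0.29 and -0.12, and at 0.020, -0.18 and -0.17. Both lists were high in wild-type replicates 1 and 2 and low in wild-type replicate 3 and knockout replicates 2 and 3, and knockout replicate 1 was the heart where they differed most. Of 5 smooth muscle markers 3 were lower, and the list was highest in wild-type replicate 1, at 0.40. One of its genes, Acta2 for smooth muscle actin, read 12.96, 12.76 and 11.07 in wild-type and 11.07, 10.66 and 11.20 in knockout hearts, with wild-type replicates 1 and 2 apart from the other 4 hearts as in Tubb4a and Clip1. Acta2 differed by -1.28, while Myh11 went the other way and was higher without overlap, by 0.32 (adjusted p = 0.455). Tagln, Cnn1 and Smtn differed by -0.18, -0.022 and 0.044. All markers of both lists were above the background level. The part of either cell type in the tubulin values was not tested.

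Markers of some other cell types also differed between the group means, with no marker past the adjusted test. The atrial cardiomyocyte list held 4 markers, 3 higher and 1 lower, and Sln and Bmp10 did not reach the background level. In that list Myl7 was higher without overlap, by 0.53, and Myl4 differed by 0.22. Of 4 adipocyte markers 3 were measured and all 3 had lower means in the knockout hearts, with the list at 0.58, 0.25 and -0.23 in wild-type and at -0.11, -0.31 and -0.18 in knockout hearts. Of 4 erythroid markers 2 were measured, Alas2 and Slc4a1, and both were higher without overlap, by 0.88 and 0.54. Of 6 endothelial markers 4 were higher and 2 lower, and Cldn5 and Kdr were higher without overlap, by 0.62 and 0.43. Emcn, the marker of highest mean in that list, went the other way with a difference of -0.27. Cdh5, Tek and Pecam1 differed by 0.23, 0.018 and -0.027. The part of these cell types in the members' values was not tested.

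**Figure D4:**
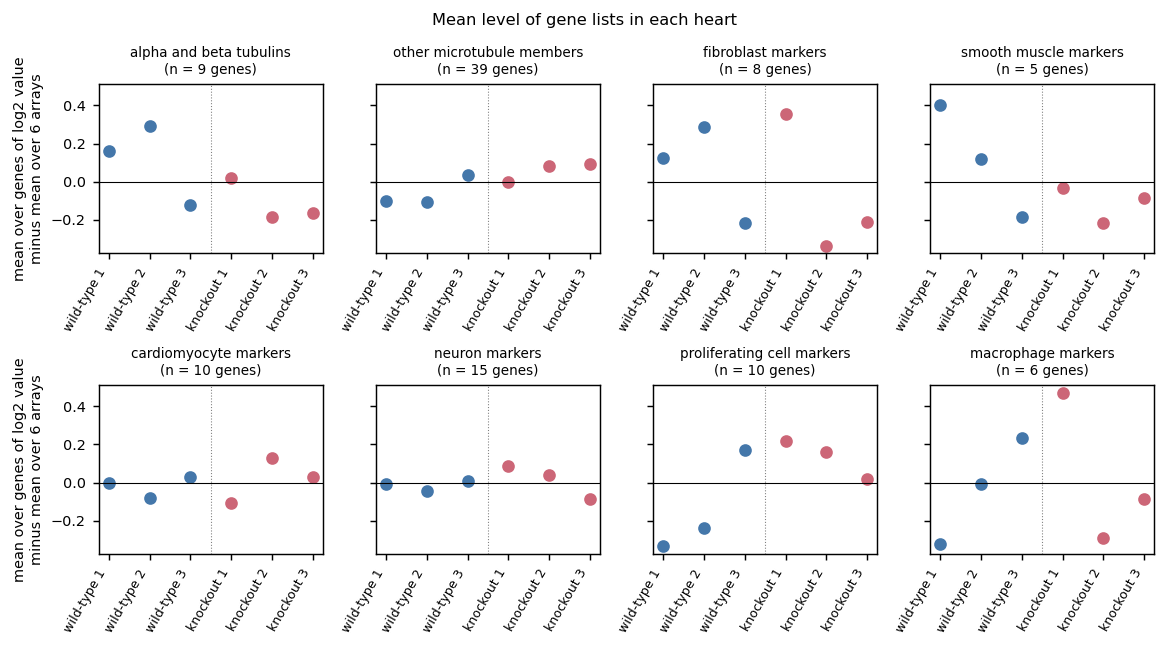
Mean over the genes of a list of the log2 value minus each gene's mean over the 6 arrays, in each heart (blue for wild-type, red for knockout). The tubulins and the fibroblast markers are high in wild-type replicates 1 and 2 and low in wild-type replicate 3 and knockout replicates 2 and 3, and the cardiomyocyte markers stay within -0.11 to 0.13.

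Genes of nucleation lay close to 0, none differing by more than 0.068. Tubgcp2, a core protein of the gamma-tubulin ring, read 8.94, 9.05 and 8.90 in wild-type and 8.95, 9.04 and 9.11 in knockout hearts, with a difference of 0.068 (SE 0.097, 95% interval -0.15 to 0.29, adjusted p = 0.836). The gamma-tubulin gene Tubg1 differed by -0.00070 with an interval of -0.26 to 0.26. Tubgcp3 and Tubgcp4, further ring components, differed by 0.012 and 0.051. For these 4 genes a change beyond 1.5-fold lies outside the 95% interval, taken gene by gene and without adjustment.

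Lattice-binding proteins, which stabilise and space microtubules, had higher means in 7 of 8 genes, with 2 at an unadjusted p under 0.05. Map1a, a microtubule-associated protein best known from neurons, read 8.14, 8.30 and 8.43 in wild-type and 8.62, 8.71 and 8.68 in knockout hearts. All knockout values lay above all wild-type values. The means were 8.29 ± 0.15 and 8.67 ± 0.05 (SD, n = 3), a difference of 0.38 or 1.30-fold (SE 0.11, 95% interval 0.14 to 0.63, unadjusted p = 0.00689, adjusted p = 0.391). Map1a had the smallest unadjusted p of the 48 members and kept one between 0.00352 and 0.0301 with each heart left out in turn, as no other member did under 0.05. Groups that did not overlap were found in 7 members, or 14.6%, against 14.8% of all probes. Map1a, Mapre2, Mapre3, Stmn1, Stmn4 and Ttl were higher and Stmn3 lower, where 7.33% of all probes were higher and 7.47% lower in that way. Leaving out wild-type replicate 3 gave 23 such members and leaving out knockout replicate 1 gave 22, where 34.2% and 31.2% of all probes had such groups.

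Mapt, which encodes tau, read 7.97, 7.77 and 8.46 in wild-type and 8.26, 8.83 and 8.72 in knockout hearts. Wild-type replicate 3 lay above knockout replicate 1, so the groups overlapped. The difference of Mapt was 0.54 (SE 0.21, 95% interval 0.06 to 1.01, adjusted p = 0.474). Map4, the main microtubule-associated protein of heart muscle, read 10.99, 10.98 and 11.34 in wild-type hearts and 11.32, 11.44 and 11.34 in knockout hearts. Only wild-type replicates 1 and 2 lay below 11, and the difference was 0.26 (SE 0.12, adjusted p = 0.527). A second Map4 probe, with a lower mean, had 9.73, 9.55 and 10.22 against 10.14, 10.52 and 10.44, and differed by 0.53 (SE 0.18, adjusted p = 0.455). Both probes thus placed Map4 higher in the knockout mean, with different sizes. Map2, a neuronal relative of tau, read 6.81, 6.70 and 6.97 against 6.89, 7.18 and 7.28, a difference of 0.29 (SE 0.13, adjusted p = 0.517). Map7, a partner of kinesin motors, differed by 0.20 and the cold-stable microtubule protein gene Map6 by 0.073. Map1b, a relative of Map1a, differed by 0.0069, and Map1s, the short member of that family, by -0.094, the one lower mean of this role.

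Several of these genes are best known from nerve cells, which reach the heart as nerve fibres and small ganglia. Of 16 neuron markers 15 were measured. Chat, Elavl4, Nefl, Nefm and Slc18a2 did not reach the background level in either group and the other 10 did in 1 or both. Their means were higher in 5 and lower in 10, and none passed the test. The mean level of the list ran from 6.54 to 6.59 in wild-type hearts and from 6.50 to 6.67 in knockout hearts. Within the list Uchl1 and Syp had an unadjusted p under 0.05, and both were higher in every knockout heart than in any wild-type heart, by 0.997 (adjusted p = 0.366) and 0.38 (adjusted p = 0.468). The part of nerve cells in the values of Map1a, Mapt and Map2 was not tested.

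The plus-end proteins gave 3 of the 8 members at an unadjusted p under 0.05, all with higher means, and of the 8 plus-end genes 6 were higher and 2 lower. Mapre2, which encodes the end-binding protein EB2, read 10.53, 10.59 and 10.57 in wild-type and 10.77, 10.80 and 10.79 in knockout hearts. The groups were tight, with SDs of 0.03 and 0.02 (n = 3), and did not overlap. Mapre2 differed by 0.22 or 1.17-fold (SE 0.09, 95% interval 0.02 to 0.42, adjusted p = 0.480), and stayed between 0.21 and 0.24 with each heart left out. Mapre3, for EB3, the form favoured in differentiated muscle and nerve, read 9.54, 9.57 and 9.88 against 9.96, 9.95 and 10. All knockout values were again above all wild-type values, by 0.31 in the mean (SE 0.12, adjusted p = 0.469). Mapre1, for EB1, the form found in most cells, went the other way. It read 9.36, 9.39 and 8.99 in wild-type and 9.05, 8.93 and 8.94 in knockout hearts, a difference of -0.27 (SE 0.13, 95% interval -0.56 to 0.02, adjusted p = 0.529). The 3 end-binding genes thus did not share a direction, and the difference between them was not tested.

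Clip1, which encodes the linker CLIP-170 of growing ends, read 9.49 and 9.62 in wild-type replicates 1 and 2. Wild-type replicate 3 read 10.57 and the knockout hearts 10.51, 10.62 and 10.42. Clip1 therefore formed 2 levels, and wild-type replicate 3 was on the upper one. The difference was 0.62 or 1.54-fold (SE 0.26, adjusted p = 0.494), the largest fold among the members, and 0.96 without wild-type replicate 3 (adjusted p = 0.0164, range 0.0164 to 0.849 over the alternatives). Clip1 and Tubb4a were the 2 members called in any of the 15 alternatives, both without wild-type replicate 3, where 1.34% of all probes were called. Clasp1, a protein that anchors plus ends at the cell edge, read 11.08, 10.97 and 11.48 in wild-type and 11.03, 11.60 and 11.54 in knockout hearts. Knockout replicate 1 sat among the low values, and Clasp1 differed by 0.21 (SE 0.19, adjusted p = 0.734), by 0.39 without knockout replicate 1 and by 0.10 without knockout replicate 2. Its relative Clasp2 differed by -0.091, Clip2 by 0.054 and the polymerase gene Ckap5 by 0.0036.

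The stathmins, small proteins that bind tubulin pairs and promote shortening, were 3 higher and 1 lower. Stmn3 read 7.64, 7.63 and 7.70 in wild-type and 7.55, 7.34 and 7.40 in knockout hearts, with every knockout value below every wild-type value. It differed by -0.23 (SE 0.10, 95% interval -0.45 to -0.01, adjusted p = 0.50), while a second Stmn3 probe, which did not reach the background level, differed by -0.030. Stmn1, the stathmin of most dividing cells, differed by 0.20 (SE 0.11), with all knockout values, from 9.50 to 9.68, at or above the highest wild-type value of 9.50. A second Stmn1 probe differed by 0.18, but its groups overlapped, with 9.46 in knockout replicate 1 and 9.48 in wild-type replicate 3. Stmn4 differed by 0.15 and Stmn2, mostly a neuronal gene, by 0.29, with its highest value, 9.10, in knockout replicate 1.

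Stmn1 and Pcnt also serve dividing cells. Of 11 markers of proliferating cells 10 were measured, of which Birc5 and Bub1 did not reach the background level in either group. Of the 10 markers 7 had higher and 3 lower means in the knockout hearts, and none passed the test. Top2a and Kif11 were higher without overlap, by 0.56 (adjusted p = 0.368) and 0.41 (adjusted p = 0.441). The wild-type mean of Top2a lay below the background level. The mean level of the list was 6.35 to 6.85 in wild-type and 6.70 to 6.9 in knockout hearts, with wild-type replicate 3 the highest wild-type heart. The part of dividing cells in the values of Stmn1 and Pcnt was not tested.

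Among the tubulin-modifying enzymes, Ttl encodes the ligase that puts the last tyrosine back on alpha-tubulin. Ttl read 9.31, 9.15 and 9.28 in wild-type and 9.35, 9.45 and 9.60 in knockout hearts, without overlap. It differed by 0.22 (SE 0.11, 95% interval -0.02 to 0.46, adjusted p = 0.533). Vash2, one of the vasohibins that remove that tyrosine, lay near the background level, at 6.59 ± 0.33 and 6.25 ± 0.25 (SD, n = 3), and differed by -0.34 (adjusted p = 0.575). Hdac6, the deacetylase of alpha-tubulin, read 8.24, 7.87 and 8.39 against 7.97, 8.50 and 8.59, with knockout replicate 1 among the wild-type values and a difference of 0.19 (SE 0.19, adjusted p = 0.766). The Hdac6 difference was 0.38 when knockout replicate 1 was left out and 0.039 when wild-type replicate 2 was. Transcript levels of these enzymes give no measure of the modified tubulin, which the arrays did not record.

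Camsap1 and Camsap2 hold the free minus ends of microtubules that do not start from a centrosome. Camsap1 read 8.59, 8.54 and 8.69 in wild-type and 8.67, 9.0 and 9.07 in knockout hearts. Knockout replicate 1 lay just below wild-type replicate 3, and Camsap1 differed by 0.31 (SE 0.13, 95% interval 0.02 to 0.60, adjusted p = 0.494). Camsap2 differed by 0.17 (SE 0.10). Macf1, a giant linker of microtubules to actin, read 10.38, 10.16 and 10.30 in wild-type and 9.94, 10.55 and 10.32 in knockout hearts. The knockout values of Macf1 spanned more than the wild-type ones, and the difference was -0.0085 (SE 0.16, 95% interval -0.37 to 0.35, adjusted p = 0.991). Dst, the other spectraplakin, differed by 0.22 (SE 0.15). Of the severing enzymes, Spast differed by 0.18 and Katna1 by -0.039.

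Tbca, a chaperone that takes up folded beta-tubulin, read 9.79, 9.81 and 9.52 in wild-type and 9.58, 9.13 and 9.44 in knockout hearts. Wild-type replicate 3 lay below knockout replicate 1, and Tbca differed by -0.33 (SE 0.14, unadjusted p = 0.0512, adjusted p = 0.508). The other cofactors, Tbcb and Tbcd, which handle alpha- and beta-tubulin, differed by 0.099 and 0.017. Tbca therefore lay on the side of the beta tubulins, and the difference between the cofactors was not tested.

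Pcnt and Pcm1 encode pericentrin and the core of the centriolar satellites, which in heart muscle cells gather at the nuclear envelope. Pcnt read 7.55, 7.45 and 7.81 in wild-type and 7.72, 8.27 and 8.09 in knockout hearts. Knockout replicate 1 lay among the wild-type values, and Pcnt differed by 0.42 or 1.34-fold (SE 0.16, 95% interval 0.05 to 0.79, adjusted p = 0.472). Pcm1 read 9.93, 9.91 and 9.87 against 9.75, 10.03 and 9.89, with a difference of -0.012 (SE 0.10, 95% interval -0.25 to 0.23, adjusted p = 0.980). Ninl, for a ninein-like protein of the centrosome, was near the background level and differed by 0.13. Pcnt and Pcm1 thus gave different values, and the difference between them was not tested.

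A further list of 108 microtubule genes outside the set held other tubulins, ring and augmin subunits, modifying enzymes, severing proteins and lattice binders. Of these 103 were measured, 0 were called, and 59 had higher and 44 lower means, with a median difference of 0.017. At an unadjusted p under 0.05 there were 12, or 11.7%, against 9.90% of all probes, with 6 in each direction. Among these genes 7, 6 and 22 had such a p with wild-type replicates 1, 2 and 3 left out in turn, and 13, 7 and 4 with knockout replicates 1, 2 and 3 left out in turn. The groups did not overlap in 25 related genes, or 24.3%, against 14.8% of all probes, with 14 higher and 11 lower. On the higher side were the lattice binder Eml1 with a difference of 0.35, Clip4, a relative of Clip1, with 0.36, the katanin-like Katnal1 with 0.27, Camsap3 with 0.28 and Gas2l3, a linker of actin and microtubules, with 0.41. On the lower side were Eml5 with a difference of -0.37, Map7d3 with -0.29, the polymerisation-promoting protein gene Tppp with -0.39, the crosslinker Mtcl1 with -0.28 and Mid1ip1 with -0.27. The smallest adjusted p among these 10 was 0.391, that of Eml5. Relatives such as Map7 and Map7d3, or Eml1 and Eml5, lay on opposite sides of 0.

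The precision limited what could be seen. Standard errors of the 48 differences ran from 0.088 to 0.28, with a median of 0.12. In 32 members the 95% interval of the single gene lay within a 1.5-fold change either way, and in 16 it did not. The 16 included Tubb4a, Tubb5, Tubb6, Tubb2b, Tuba1a, Clip1, Mapt, Map1a and Pcnt.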

How the data were processed

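The authors deposited log2 values of 35556 probes on 6 arrays. RMA and Partek 6.6 are named, without settings, per the submitters' processing notes, and the log2 scale was read from the values. Genome build and annotation were not given in the labels. Array medians lay between 6.92 and 6.97, so no further normalization was applied, and no pseudocount or filter was used. Of the probes, 21789 had exactly 1 gene symbol in the platform annotation, 1621 several and 12146 none; 21698 matched a RefSeq table of GRCm38.p6 by Entrez ID and 0 symbols changed. Of the 20 neighbours of a member probe in probe order, only those with a known chromosome were counted, at least 10 per probe. For all 51 member probes most of the counted neighbours lay on the gene's own chromosome.

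The groups were tested with limma 3.58.1 (lmFit, eBayes, two-sided) in R 4.3.3, with p-values adjusted over the 21789 probes. Differences are knockout minus wild-type, on the log2 scale. Fully described were the 12 members of smallest p, the smallest in each role, and 12 genes known from heart muscle microtubules, of which 10 were measured; Tubb6, Tuba1a and some others are given besides. Of the related genes the 5 higher and 5 lower of smallest p above background are named. Members and lists were chosen with earlier results of these data known. Same-numbered hearts did not deviate together, with correlations of -0.11, -0.16 and -0.0031. The alternatives were 3 normalizations, a filter on dim probes, all probes as the family, gene means, another variance model, array weights, a replicate block and each array left out. The number of arrays limits the precision. Figures were drawn with matplotlib 3.10.9.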

Additional observations from a re-analysis of the deposited data

How the results depend on the processing

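No member was called in 14 of the 15 alternatives, and 2 were called without wild-type replicate 3, so that leaving out 1 heart gave 0 to 2. The number of members at an unadjusted p under 0.05, 8 in the reported fit, was 4 with all probes of the table as the family, 21 with array weights and 1 to 14 with 1 heart left out. The smaller value with all probes comes from the same differences under another estimate of the spread, and the other causes were not tested. Members whose groups did not overlap numbered 8 to 23 with 1 heart left out, beside 4696 to 7451 of all 21789 probes. In the reported fit these numbers were 7 members and 3226 probes. The median difference of the members was 0.10 with array weights and 0.041 to 0.084 with 1 heart left out. Related microtubule genes at that p numbered 26 with array weights and 4 to 22 with 1 heart left out, and 0 were called in every alternative. Over the whole table the calls numbered 1 with all probes, 22 with the trend and robust variance model, 33 with array weights, 11 with the replicate block and 1 to 293 with 1 heart left out. Cenpf stayed at -2.07 with all probes but did not pass (adjusted p = 0.281), and ranged from -2.27 to -1.92 with 1 heart left out. With the replicate block, where the numbers did not pair the hearts, 7 members had an unadjusted p under 0.05 and 0 were called.

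Clip1 ranged from 0.42 to 0.96 and Tubb4a from -0.96 to -0.40 with 1 heart left out, both passing without wild-type replicate 3. Macf1, Pcm1 and Tuba4a, all close to 0, turned sign. Macf1 was 0.013 with array medians subtracted, 0.00067 with cyclic loess normalization, 0.054 with array weights and -0.15 to 0.16 with 1 heart left out. Pcm1 was 0.0095 with array medians subtracted, 0.0061 with array weights and -0.080 to 0.058 with 1 heart left out. Tuba4a ranged from -0.045 to 0.070 with 1 heart left out. Across all 48 measured members 16 turned sign in at least 1 alternative. Besides these 3 they were Ckap5, Clip2, Katna1, Map1b, Map6, Ninl, Tbcb, Tbcd, Tubb2b, Tubb3, Tubg1, Tubgcp3 and Tubgcp4. Of the 16 only Ninl and Tubb2b differed by more than 0.1 in the reported fit, and both turned without wild-type replicate 2, to -0.081 and 0.023. The other 32 members kept their direction in all 15 alternatives. The small number of hearts limits all of these values.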
